A study of Mus musculus with 12 samples.

Results

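Keratins are the intermediate filament proteins of epithelial cells, and their genes were followed here in the anterior prostate of APT121 and wild type mice. The members are all genes whose symbol is Krt followed by a digit, which gave 52 of the 19935 genes measured. By their textbook sites of expression they were sorted into 7 simple keratins, 4 basal keratins, 15 keratins of stratified epithelium, 9 of the hair follicle sheaths, 13 of the hair shaft and 4 in no class (Krt42, Krt88, Krt90 and Krt222). The comparison addresses how the keratin transcripts of a prostate lobe with prostatic intraepithelial neoplasia (PIN) differ from those of a normal lobe.

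Total RNA of the anterior lobe was measured on 12 Affymetrix Mouse Gene 1.0 ST arrays. The 4 APT121 arrays hold RNA of mice that carry T121, a fragment of the SV40 large T antigen that inactivates the pRb family, under the probasin promoter, which is active in prostate epithelium. The labels give their tissue as PIN lesion. The 8 wild type arrays hold RNA of mice without the transgene, labelled normal. All 24 animals were males killed at 12 weeks of age, on a background mixed from C57BL/6J and DBA/2 at the F3 generation, and ate the AIN93G semi-purified diet from 3 weeks of age. Each array is a pool of equal RNA from 2 mice, so a p-value measures the spread between pools. In bulk RNA of a whole lobe, fewer cells of a type and less RNA per cell cannot be told apart.

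Keratin filaments are built from pairs of a type I (acidic) and a type II (basic) chain, and the pair in use marks the kind of epithelium. Secretory luminal cells of the prostate carry the simple keratins Krt8 and Krt18, while the basal cells on the basement membrane carry Krt5 and Krt14. Other pairs belong to stratified linings such as oesophagus and skin (Krt4 with Krt13, Krt1 with Krt10) or to hair.

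In APT121 prostates some keratins of the stratified and simple classes rose, while 3 basal keratins fell. Krt4, Krt78 and Krt7 rose most, Krt19, Krt8, Krt1 and Krt80 rose as well, and the basal keratins Krt5, Krt15 and Krt14 fell. Of the 52 keratins, 7 were higher, 12 were lower and 33 did not pass the limma test at an adjusted p of 0.05, against 52.8% of all genes that passed (22.8% higher and 30.0% lower). The median log2 difference of APT121 from wild type was -0.09 over the keratins and -0.09 over all genes. Among the keratins 4 rose and 2 fell by at least 2-fold, a size that 7.68% of all genes reached (5.73% up and 1.95% down). The APT121 and wild type arrays did not overlap for 14 keratins (6 higher and 8 lower), as was so for 34.6% of all genes (17.7% higher and 16.9% lower). Most keratins had low signal: 40 of the 52 had a mean below that of the median gene, and 27.5% of those passed, against 36.7% of the 9967 genes in that range.

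The 250 bases before the RefSeq start (GRCm38.p6) are shown for 5 keratins of chromosome 15 on which the results turn, namely 3 that rose, Krt18, which did not pass, and the basal Krt5. The windows are chr15:101412153-101412402 on the plus strand for Krt7, chr15:101954288-101954537 on the minus strand for Krt78, chr15:102004343-102004592 on the minus strand for Krt8, chr15:102027966-102028215 on the plus strand for Krt18 and chr15:101712906-101713155 on the minus strand for Krt5. Each is written 5′ to 3′, and capitals mark matches, on either strand, to the motifs named after them.

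Krt7: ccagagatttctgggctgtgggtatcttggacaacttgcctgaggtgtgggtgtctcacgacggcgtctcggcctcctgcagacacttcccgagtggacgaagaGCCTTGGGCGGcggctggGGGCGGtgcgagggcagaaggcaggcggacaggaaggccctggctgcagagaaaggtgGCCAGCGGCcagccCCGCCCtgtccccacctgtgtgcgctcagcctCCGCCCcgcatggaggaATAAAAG
Krt78: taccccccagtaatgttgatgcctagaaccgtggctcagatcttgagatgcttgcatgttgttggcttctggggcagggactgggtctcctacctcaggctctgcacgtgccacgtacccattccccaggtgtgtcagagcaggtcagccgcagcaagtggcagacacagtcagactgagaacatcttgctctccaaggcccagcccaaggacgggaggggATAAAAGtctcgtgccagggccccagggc
Krt8: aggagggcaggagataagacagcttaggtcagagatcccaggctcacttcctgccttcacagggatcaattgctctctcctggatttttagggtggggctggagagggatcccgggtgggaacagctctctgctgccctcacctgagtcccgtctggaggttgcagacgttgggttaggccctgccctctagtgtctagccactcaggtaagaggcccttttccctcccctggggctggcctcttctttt
Krt18: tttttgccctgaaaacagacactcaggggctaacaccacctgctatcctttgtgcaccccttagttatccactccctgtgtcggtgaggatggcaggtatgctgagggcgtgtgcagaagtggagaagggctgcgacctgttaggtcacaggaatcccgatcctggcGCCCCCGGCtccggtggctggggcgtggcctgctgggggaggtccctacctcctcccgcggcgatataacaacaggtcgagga
Krt5: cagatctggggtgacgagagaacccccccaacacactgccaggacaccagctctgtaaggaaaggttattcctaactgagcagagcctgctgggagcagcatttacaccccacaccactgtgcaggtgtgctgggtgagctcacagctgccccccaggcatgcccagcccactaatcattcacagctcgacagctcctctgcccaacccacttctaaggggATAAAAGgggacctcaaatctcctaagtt

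The capitals are the TATA-like ATAAAAG in Krt7, Krt78 and Krt5, the AP-2 motif GCCNNNGGC in Krt7 and Krt18, and the GC box GGGCGG, or CCGCCC on the other strand, in Krt7. The Krt78 and Krt5 windows both hold ATAAAAG from 29 to 23 bases before the start, while in Krt7 it fills the last 7 bases. Krt7 also had 2 AP-2 matches, the first of which overlaps a GC box, and 4 GC boxes. The Krt8 window held no match to any motif searched. Of the 52 keratins, 36 have a promoter entry, and Krt4, Krt19, Krt15 and Krt1 are among those not listed. A keratin counted for a motif if any of its windows held a match, while the background counted single windows. ATAAAAG was added to the search after the sequences were seen, so its excess is in part built in. Searched on both strands, it was found in 12 of the 36 (33.3%), against 4.83% of all 32851 windows of the same length. TATAAA, which can overlap it, was found in 17 of the 36 (47.2%), against 12.4% of all windows, mostly in hair keratins. The GC box was found in 2 of the 36, Krt7 and Krt75, against 32.7% of all windows, and the AP-2 motif in 5 of the 36 (13.9%), against 13.7%. The AP-1 motif TGANTCA was found in Krt13 alone (2.78%), against 6.75% of all windows. The E2F motifs TTTGGCGC and TTTCCCGC were found in 0 of the 36 keratins, against 0.417% and 0.895% of all windows. A match here is a run of letters and not a measured binding site.

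Among the 7 simple keratins, 4 rose, 0 fell and 3 did not pass. The 57.1% called is near the 52.8% of all genes, so this count is no result about the class. Krt7, a type II keratin of ductal and transitional epithelia, had log2 values of 8.48, 7.91, 7.60 and 9.34 in APT121 arrays 1 to 4, and from 5.46 through a median of 5.77 to 6.18 in the wild type arrays. No APT121 value reached down into the wild type range, and array 4 was highest and array 3 lowest. The difference was 2.51 ± 0.23 (SE), or 5.71-fold, with a limma adjusted p of 1.93e-07.

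Krt19, the small type I keratin of ductal and glandular cells, read 12.58, 12.53, 12.60 and 12.59 in APT121 arrays 1 to 4, against wild type values from 11.02 through 11.29 to 11.47. The APT121 arrays were tightly grouped and did not overlap the wild type arrays. Its difference was 1.31 ± 0.08, or 2.48-fold (limma adjusted p = 1.69e-09).

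The luminal partners Krt8 and Krt18 did not change together. Krt8, the type II partner, had 11.47, 11.55, 11.55 and 11.62 in APT121 arrays 1 to 4, and 10.36 through 10.54 to 10.82 in the wild type arrays. The 2 groups were apart, with a difference of 1.00 ± 0.08, or 2.00-fold (limma adjusted p = 2.96e-08), which lies just under the 2-fold size used above. Krt18, its type I partner, had 11.41, 11.46, 11.47 and 11.43 in APT121 and 11.39 through 11.49 to 11.58 in wild type. All 4 APT121 values of Krt18 lay inside the wild type range. Its difference was -0.04 ± 0.06, with a 95% interval of -0.16 to 0.08 (limma adjusted p = 0.589).

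Krt80, a type II keratin found broadly in epithelia, read 5.73, 5.58, 5.36 and 5.81 in APT121 arrays 1 to 4 and 5.25 through 5.33 to 5.37 in wild type. It was called higher at 0.30 ± 0.08 (limma adjusted p = 0.00339), although APT121 array 3 lay within the wild type range. Krt23 averaged 7.42 ± 0.22 (SD, n = 4) in APT121 and 7.39 ± 0.10 (n = 8) in wild type, a difference of 0.03 with a 95% interval of -0.15 to 0.22. Krt20, known from intestine and the umbrella cells of urothelium, averaged 3.54 ± 0.14 and 3.68 ± 0.14, a difference of -0.14 with an interval of -0.32 to 0.05. Neither passed the limma test (adjusted p = 0.764 and 0.191).

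**Figure D1:**
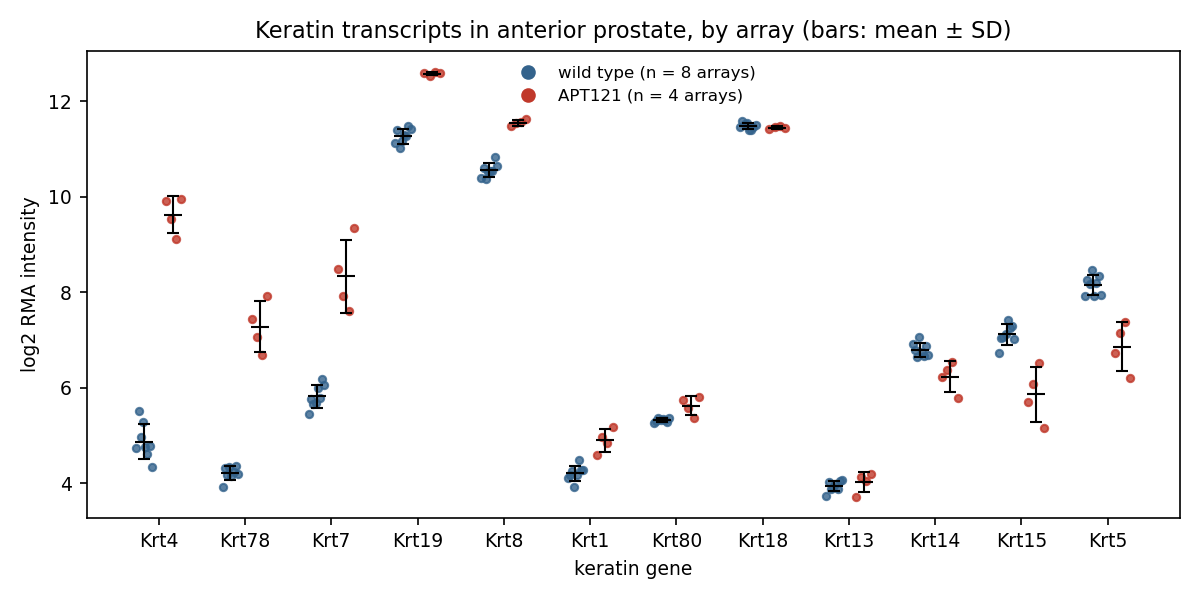
Log2 RMA intensity of the named keratins on each array (vertical axis), with wild type in blue (n = 8), APT121 in red (n = 4) and bars for the mean ± SD. Krt4, Krt78, Krt7, Krt19, Krt8 and Krt1 have every APT121 array above every wild type array, Krt5, Krt15 and Krt14 the reverse, and Krt18 overlaps.

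Of the 15 stratified keratins, 3 rose, 1 fell and 11 did not pass (26.7% called, against 52.8% of all genes), with a median difference of -0.01. Krt4, the type II keratin of mucosal linings, showed the largest difference of all keratins. Its log2 values were 9.90, 9.53, 9.11 and 9.94 in APT121 arrays 1 to 4, and ran from 4.33 through 4.76 to 5.51 in the wild type arrays. The lowest APT121 array stood well above the highest wild type array. The difference was 4.75 ± 0.19, or 26.9-fold (limma adjusted p = 1.09e-11). The wild type mean of 4.87 lies below that of the median gene (5.38) and is not shown to stand above background, so the fold depends on that base. It was 17.6-fold with 16 added to each value before log2.

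Krt13, the type I partner of Krt4 in those linings, read 3.72, 4.12, 4.05 and 4.20 in APT121 arrays 1 to 4 and 3.73 through 3.95 to 4.06 in wild type. The groups overlapped, the difference was 0.08 ± 0.09 with a 95% interval of -0.10 to 0.27, and the gene did not pass (limma adjusted p = 0.439).

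Krt78, a type II keratin of stratified epithelium, had 7.43, 7.07, 6.67 and 7.93 in APT121 arrays 1 to 4 and 3.92 through 4.21 to 4.35 in wild type. Every APT121 array was above every wild type array, and array 4 was again highest and array 3 lowest. The difference was 3.06 ± 0.16, or 8.37-fold (limma adjusted p = 2.18e-10). Its wild type mean of 4.21 also lies below the median gene, and with 16 added to each value the rise was 4.97-fold.

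Krt1, the type II keratin of the suprabasal epidermis, read 4.58, 4.97, 4.85 and 5.17 in APT121 and 3.91 through 4.22 to 4.48 in wild type. The groups did not overlap, and the difference of 0.69 ± 0.11, or 1.61-fold, passed (limma adjusted p = 5.31e-05). Its type I partner Krt10 averaged 4.99 ± 0.07 (SD, n = 4) and 5.11 ± 0.11 (n = 8), a difference of -0.12 with a 95% interval of -0.27 to 0.03 that did not pass (limma adjusted p = 0.177). Krt6a, which appears in stressed and hyperproliferative epidermis, differed by 0.08 with an interval of -0.14 to 0.30 (limma adjusted p = 0.549), and its near-identical copy Krt6b can share its probes. Krt76, of the oral lining, was the 1 stratified keratin called lower, at -0.23 ± 0.08 (limma adjusted p = 0.0191). That call was lost without APT121 array 1 or array 4 (limma adjusted p = 0.089 and 0.0504). The other stratified keratins that did not pass (Krt2, Krt6b, Krt9, Krt12, Krt16, Krt24, Krt77 and Krt79) differed by -0.10 (Krt24) to 0.15 (Krt77).

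Basal keratins moved the other way: of 4, 0 rose, 3 fell and 1 did not pass, with a median difference of -0.91. The share called was 75.0%, against 52.8% of all genes. Krt5, the type II keratin of basal cells, read 6.73, 7.14, 7.37 and 6.19 in APT121 arrays 1 to 4 and 7.93 through 8.18 to 8.47 in wild type. All APT121 arrays were below all wild type arrays, with array 4 lowest and array 3 highest. The difference was -1.29 ± 0.17, or 2.45-fold lower (limma adjusted p = 9.73e-06).

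Krt15, a type I keratin of basal layers, had 5.70, 6.07, 6.53 and 5.16 in APT121 arrays 1 to 4 and 6.72 through 7.09 to 7.41 in wild type. It was lower by 2.38-fold (-1.25 ± 0.19, limma adjusted p = 3.31e-05), and no array overlapped. Krt14, the type I partner of Krt5, had 6.23, 6.37, 6.54 and 5.78 against 6.64 through 6.77 to 7.06. It too fell with no overlap, by 1.48-fold (-0.56 ± 0.12, limma adjusted p = 7.89e-04). Krt17, a type I keratin of basal and injured epithelia, did not pass: it differed by 0.12 ± 0.12, with a 95% interval of -0.13 to 0.36 and a limma adjusted p of 0.413.

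**Figure D2:**
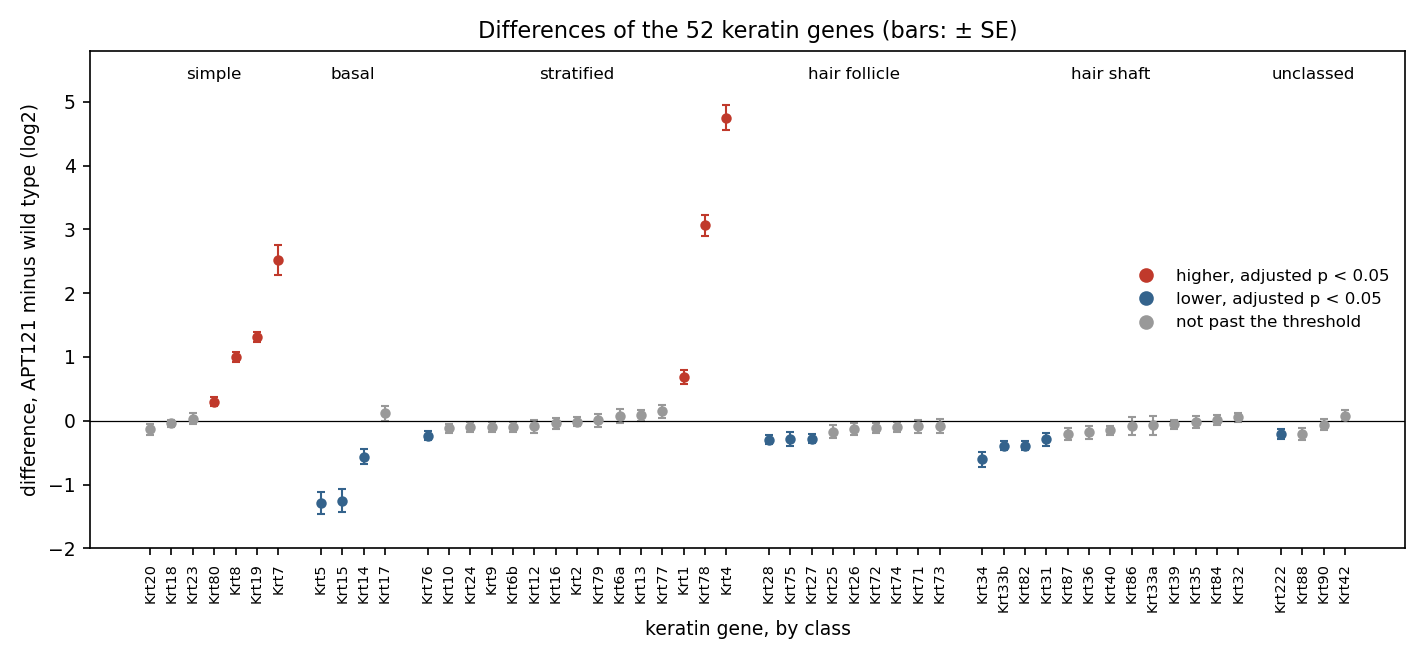
Difference of APT121 from wild type on the log2 scale (vertical axis) for the 52 keratins, grouped by class along the horizontal axis, with bars for ± SE from limma and colour for the call at an adjusted p of 0.05. Krt4, Krt78, Krt7 and Krt19 lie past a 2-fold rise and Krt5 and Krt15 past a 2-fold fall, and most hair keratins lie near 0.

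The 22 keratins of hair, 9 of the follicle sheaths and 13 of the shaft, had small differences from -0.60 to 0.05, with a median of -0.14. Of these 0 were higher and 7 were lower (31.8%, against 30.0% of all genes called lower). The count is near that share and is no result about the hair keratins as a set. The group means of 20 lay below the median gene in both genotypes. The array gives no detection call here, so their values are not shown to stand above background. For all 9967 genes with a mean below that of the median gene the median difference was -0.13. The shaft keratins Krt34 (-0.60 ± 0.12), Krt33b (-0.39 ± 0.07), Krt82 (-0.39 ± 0.07) and Krt31 (-0.29 ± 0.10) were called lower, as were Krt28, Krt75 and Krt27 of the sheaths. Of the unclassed keratins, Krt222 was lower at -0.21 ± 0.08 (limma adjusted p = 0.0297). Krt87, Krt36, Krt25 and the 12 other hair keratins that did not pass differed by -0.20 (Krt87) to 0.05 (Krt32), and Krt88, Krt90 and Krt42 by -0.20, -0.06 and 0.08. Single arrays decided 3 of these calls: Krt31 was lost without APT121 array 2, 3 or 4, Krt75 without APT121 array 1, 2 or 4 or wild type array 4 or 5, and Krt222 without APT121 array 2 or 4, at limma adjusted p values from 0.0501 to 0.123. The 15 genes listed as hair proteins that accompany keratins gave 0 higher and 4 lower with a median of -0.17. The 26.7% called lower is also near that of all genes. The largest falls were S100a3 at -0.41 and Krtap3-3 at -0.40.

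Because filaments need a chain of each type, the change of 7 keratin pairs was compared within each array. All 7 pairs changed unequally by an exact permutation test, two-sided, over the 495 ways to choose the APT121 arrays, each at p = 0.00202, which is the smallest the design can give and stays 0.00202 after Benjamini-Hochberg adjustment over the 7. Krt8 gained 1.04 ± 0.08 (log2) on Krt18. Krt4 gained 4.67 ± 0.26 on Krt13, and Krt1 gained 0.81 ± 0.15 on Krt10. In each of these pairs the type II chain rose and the type I chain did not pass the limma test. Their pair results therefore largely restate the single-gene differences and are no separate support. Krt13 and Krt10 lay below the median gene in both groups and are not shown to stand above background, so a change of theirs could be missed and both pair values depend on that base.

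Within the basal pair the type II chain fell further, by 0.73 ± 0.12 (Krt5 against Krt14: -0.73). Krt8 rose against Krt5, its type II counterpart in basal cells, by 2.29 ± 0.21, and Krt18 rose against Krt14 by 0.53 ± 0.13. These values also largely restate the single-gene differences. Krt7 gained 1.20 ± 0.26 on Krt19, so the measured intensities of these ductal keratins did not rise by the same factor either. Each pair value is an unequal change, and the probes of 2 genes give no order of their levels.

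Mouse keratin genes lie in a cluster of mostly type II genes on chromosome 15, which ends in the type I gene Krt18, and a cluster of type I genes on chromosome 11. Of the 25 keratins measured on chromosome 15, 6 rose (Krt80, Krt7, Krt1, Krt4, Krt78 and Krt8) and 4 fell (Krt82, Krt75, Krt5 and Krt76). Of the 27 on chromosome 11, 1 rose (Krt19) and 8 fell. The 7 that rose were thus 6 type II genes and 1 type I gene. In RefSeq order Krt4, Krt79, Krt78, Krt8 and Krt18 are neighbours, yet Krt4, Krt78 and Krt8 rose while Krt79, at 0.01 (limma adjusted p = 0.961), and Krt18 did not pass. On chromosome 11 Krt19 stands between Krt15, which fell, and Krt9. Of the 12 other genes measured within or beside the chromosome 15 cluster 1 rose and 4 fell, and of the 30 at chromosome 11 4 rose and 8 fell.

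**Figure D3:**
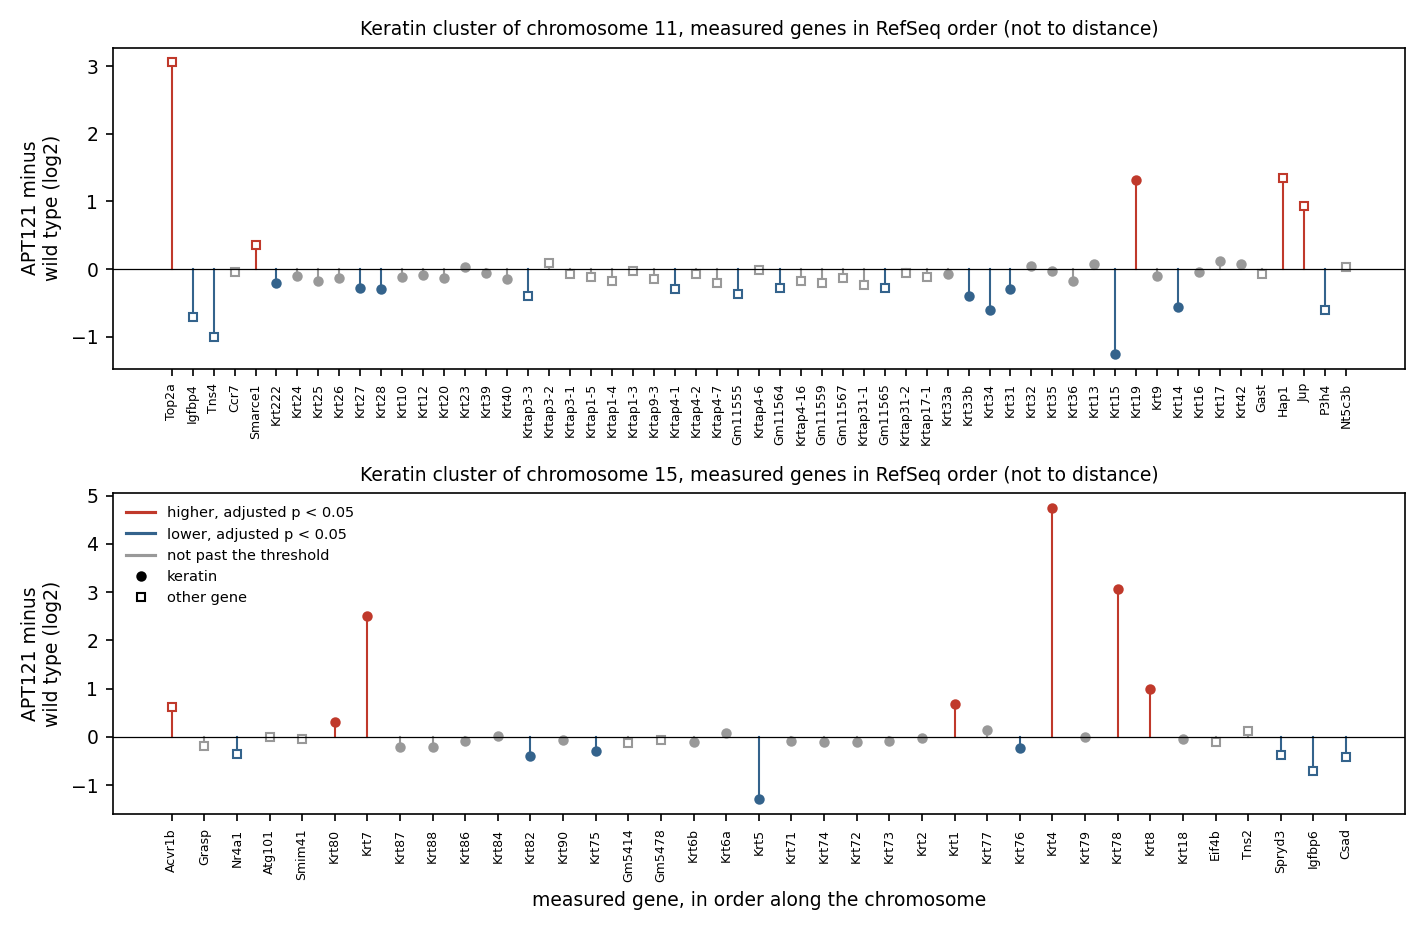
Difference of APT121 from wild type on the log2 scale (vertical axis) for the genes of the keratin clusters on chromosomes 11 and 15, set in RefSeq order (horizontal axis, rank and not distance), with keratins as filled circles, other genes as open squares and colour for the call. Large keratin differences stand as single genes or short runs, Krt19 and Krt15 on chromosome 11 and Krt4, Krt78, Krt7 and Krt5 on chromosome 15.

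The APT121 arrays were not equal, and the keratins with the largest rises and falls, other than Krt19, ran in opposite orders across them. From high to low the order was array 4, 1, 2, 3 for Krt4, Krt7, Krt78, Krt80 and Krt84, and array 3, 2, 1, 4 for Krt5, Krt14, Krt15, Krt75, Krt82 and Krt87. These are 5 and 6 of the 52 keratins, and Krt19, Krt8 and Krt1 among those that rose, and Krt34, Krt33b and Krt28 among those that fell, took other orders. These orders were chosen after the values were seen. Over all genes 8.98% followed the first order and 5.88% the second, and among the 1532 genes called and changed at least 2-fold 434 (28.3%) followed either. Of the 6 keratins changed by that size, 5 followed either order, Krt19 being the exception.

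Other genes took the same orders. Klf5 and Itgb4 ran in the first, and the secretory genes Tgm4 and Pbsn in the second: Tgm4, the prostate transglutaminase, read 10.63, 11.60, 12.42 and 10.04 in APT121 arrays 1 to 4, against 13.85 to 13.98 in wild type. Trp63 followed neither. Of the 17 luminal markers without keratins 5 followed the first order (Hoxb13, Cdh1, Prom1, Dpp4 and Ehf) and 2 the second (Pbsn and Tgm4). Among those in the first order, Hoxb13, Prom1, Dpp4 and Ehf fell in APT121 and Cdh1 rose. The 19 basal markers without keratins had 3 in the first order (Itgb4, Bcl2 and Dkk3) and 2 in the second (Lgals7 and Pdpn). Of the 12 smooth muscle markers 5 followed the second order. The part of tissue makeup in these orders was not tested.

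**Figure D4:**
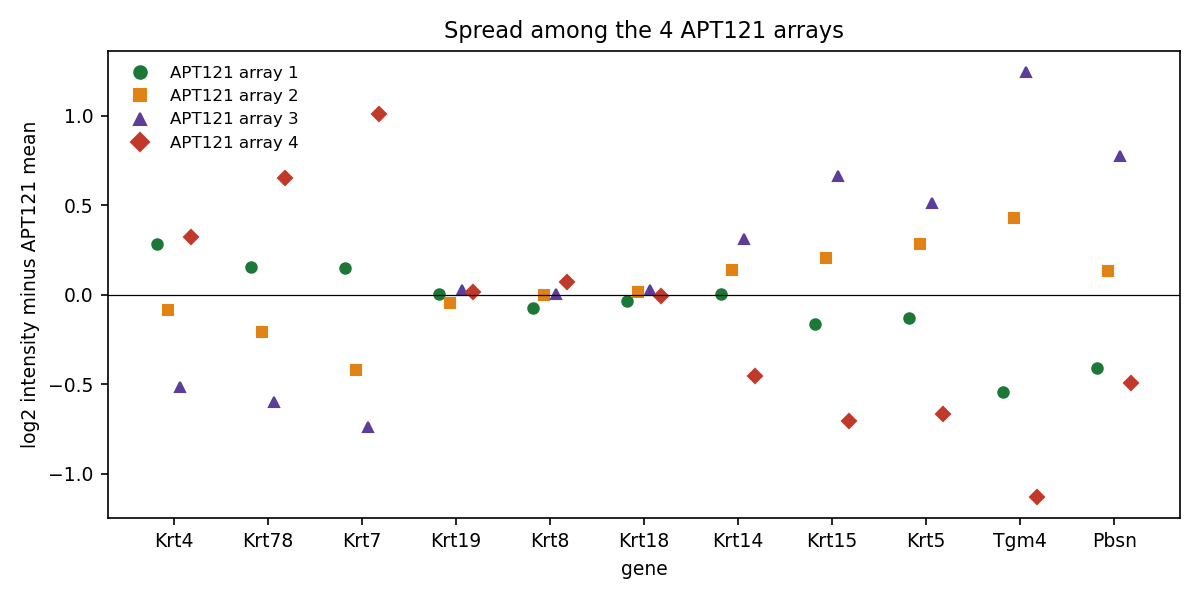
Log2 intensity of each of the 4 APT121 arrays (symbols) minus the gene's own APT121 mean (vertical axis), for 9 keratins and the secretory genes Tgm4 and Pbsn (horizontal axis). Array 4 is highest for Krt4, Krt78 and Krt7 and lowest for Krt14, Krt15, Krt5, Tgm4 and Pbsn, and the arrays of Krt19, Krt8 and Krt18 lie close together.

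Genes that anchor or accompany keratins were counted from lists of textbook members. Of 21 desmosome and keratin linker genes, 19 were measured, 11 rose and 4 fell (78.9% called, against 52.8% of all genes), with a median of 0.36 against -0.09. The largest rises were Ppl, periplakin (1.55 ± 0.10, limma adjusted p = 3.61e-09), Itgb4, a hemidesmosome integrin (1.43 ± 0.10, limma adjusted p = 4.01e-09), and Pof1b (1.33 ± 0.12, limma adjusted p = 1.08e-07). The desmosome cores Jup and Dsp rose by 0.93 ± 0.07 and 0.46 ± 0.07. The 4 that fell were Pkp1 (-0.80 ± 0.11), Dst (-0.75 ± 0.08), Col17a1 (-0.66 ± 0.09) and Dsc3 (-0.23 ± 0.07). Dst and Col17a1 belong, like Itgb4, to the hemidesmosomes of basal cells, so members of that junction moved in both directions.

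Of 27 cornified envelope genes, 25 were measured, 5 rose and 8 fell, with a median of -0.14. The 13 called of 25 are a share near the 52.8% of all genes, so the count is no result about the list, and single members are given as values. Sprr1a, a small proline-rich envelope precursor, read 9.70, 8.45, 8.67 and 10.51 in APT121 arrays 1 to 4 against 4.90 through 5.86 to 6.45 in wild type. It rose by 3.60 ± 0.35, or 12.1-fold (limma adjusted p = 2.72e-07), with no overlap. Tgm5, an epidermal transglutaminase, rose by 1.52 ± 0.12 and Ivl, involucrin, by 0.40 ± 0.10, while Lgals7 fell by 0.57 (-0.57 ± 0.11). Lor, loricrin, differed by 0.22 ± 0.14 and did not pass (limma adjusted p = 0.197).

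Of 17 other intermediate filament genes, 2 rose and 6 fell, with a median of -0.16, and the 47.1% called is also near that of all genes. Both that rose were nuclear lamins: Lmnb1 by 2.65 ± 0.11, or 6.26-fold (limma adjusted p = 1.54e-11), and Lmnb2 by 0.98 ± 0.12. Desmin of muscle (Des, -0.97 ± 0.09) and vimentin of mesenchyme (Vim, -0.60 ± 0.13) fell.

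Of 25 epithelial transcription factors known to act on keratin genes, 24 were measured, 9 rose and 10 fell, with a median of -0.19. The share called was 79.2%, against 52.8% of all genes. Klf5, a factor of proliferating and basal epithelium, read 10.74, 10.32, 10.23 and 11.06 in APT121 arrays 1 to 4 and 6.66 through 7.09 to 7.49 in wild type. It rose by 3.48 ± 0.17, or 11.1-fold (limma adjusted p = 7.21e-11). Sox9 rose by 2.33 ± 0.08 (limma adjusted p = 2.16e-12), Elf3 by 2.20 ± 0.16 and Zfp750, a factor of epidermal differentiation, by 1.62 ± 0.11. Trp63, the p63 factor that marks basal cells, fell by 0.85 (-0.85 ± 0.10, limma adjusted p = 2.01e-06), and Elf5 fell by 1.57 (-1.57 ± 0.32).

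Markers of the cell types in the lobe were summed beside the keratins. Of 19 basal markers measured without keratins (20 listed), 6 rose and 12 fell (94.7% called, against 52.8% of all genes), with a median of -0.34. Lama3 (-1.85 ± 0.16) and Trp63 fell beside Krt5, while Itgb4 (1.43 ± 0.10) and Sfn (1.01 ± 0.11) rose. The summed linear intensity of the list ran from 2243.0 to 2371.6 in APT121 and 1934.7 to 2241.4 in wild type. Itga6, Egfr and Itgb4, which rose, made up much of that sum. The other 16 members, summed apart after the values were seen, ran from 822.2 to 864.2 in APT121 and 1043.8 to 1218.7 in wild type. The genes left out were bright ones that rose, so the lower sum of the rest follows in part from that choice. The full list was higher in APT121. The part of a lower basal share in the fall of Krt5, Krt15 and Krt14 was not tested.

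Of 17 luminal markers measured without keratins (20 listed), 7 rose and 9 fell (94.1% called, against 52.8% of all genes), with a median of -0.53. Probasin (Pbsn), a secretory product of the prostate, was at 12.68 to 12.91 in wild type and fell by 3.27 (-3.27 ± 0.17), and Tgm4 fell by 2.74 (-2.74 ± 0.29). Tmprss2 (-1.85 ± 0.09), Spdef (-1.18 ± 0.11), Cd24a (-0.83 ± 0.10), Prom1, Hoxb13, Dpp4 and Ehf fell as well. Elf3, which the list of transcription factors also holds, rose, as did Epcam (0.96 ± 0.09), Cdh1 (1.12 ± 0.07), Cldn3, Cldn4, Cldn7 and Foxa1. The summed list ran from 17694.1 to 21577.1 in APT121 and 37152.1 to 40698.4 in wild type. Tgm4 and Pbsn carried nearly all of that drop. The other 15 members, also summed apart after the values were seen, ran from 14845.8 to 16479.6 in APT121 and 15242.3 to 17141.1 in wild type. Those ranges overlap.

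Transitional epithelium, which also carries Krt7 and Krt19, was followed through 10 urothelium markers. Of these 4 rose, 3 fell and 3 did not pass (70.0% called, against 52.8% of all genes). Upk1a, a uroplakin, rose by 2.42 ± 0.29 (limma adjusted p = 3.15e-06) and Upk2 by 0.87 ± 0.15, while Sncg fell by 1.23 (-1.23 ± 0.27). Upk3a did not pass, at -0.10 ± 0.08 (limma adjusted p = 0.337). The summed list ran from 3988.8 to 4731.0 in APT121 and 3664.0 to 4084.5 in wild type. The part of urothelium in the rise of Krt7 was not tested.

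Seminal vesicle, which adjoins the anterior lobe, was followed through 10 markers, of which 3 rose and 0 fell (30.0% called, against 52.8% of all genes). Svs2, a secretory protein of the gland, read 9.93, 13.26, 12.61 and 12.95 in APT121 arrays 1 to 4, and 4.11 through 5.14 to 12.93 in wild type, where array 6 was the highest. Svs2 (6.17 ± 1.26), Pate4 (5.43 ± 1.23) and Svs5 (5.10 ± 1.14) were called. Without wild type array 6 these differences were 7.16, 6.35 and 5.98, and without APT121 array 1 they were 6.93, 6.47 and 5.93. The summed list ran from 1604.5 to 18011.9 in APT121, and from 140.6 to 243.2 in the wild type arrays other than array 6, which had 16056.2. Array 6 was also high in Svs1, Svs3a, Svs3b, Svs6 and Spinkl, at 6.96, 6.45, 6.97, 5.86 and 4.89. The APT121 arrays reached at most 4.17, 2.89, 3.61, 3.26 and 2.76 there, so array 6 and the APT121 arrays differed in profile for these genes. Svs4, which was not called, was high on array 6 at 9.95. It read 5.12, 7.71, 6.98 and 8.27 in APT121 arrays 1 to 4, against a wild type median of 4.49.

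Array 6, high in these markers, had Krt4 at 4.62, Krt78 at 4.23 and Krt7 at 5.78, within the range of the other wild type arrays. Without it the differences were 4.71 for Krt4, 3.07 for Krt78, 2.51 for Krt7, -1.28 for Krt5 and -1.23 for Krt15. APT121 array 1, with the lowest seminal vesicle sum of its group, was second to array 4 in Krt4, Krt78 and Krt7. The part of seminal vesicle tissue in the keratin differences was not tested.

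**Figure D5:**
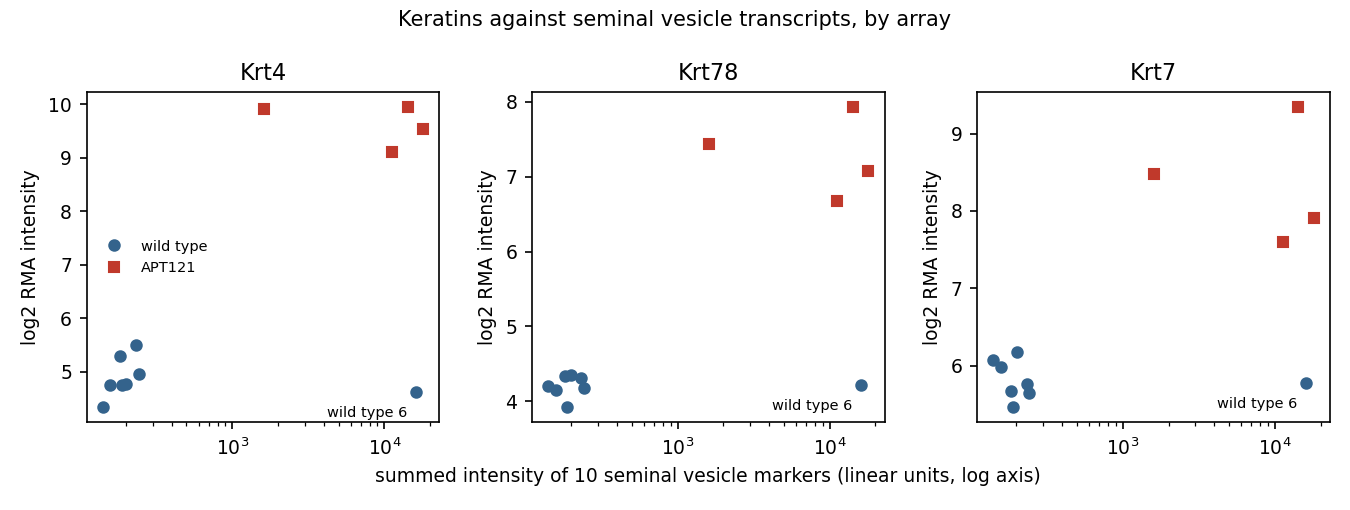
Summed linear intensity of the 10 seminal vesicle markers (horizontal axis, log scale) against the log2 value of Krt4, Krt78 and Krt7 (vertical axis) on each array, APT121 and wild type marked apart. Wild type array 6, at 16056.2, has keratin values among those of the other wild type arrays.

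Markers of smooth muscle and adipose tissue were lower. All 12 smooth muscle markers fell (100%, against 30.0% of all genes called lower), with a median of -0.68. Their summed intensity was 7366.2 to 9849.7 in APT121 against 12314.9 to 14316.7 in wild type. Of 10 adipose markers measured (12 listed), 9 fell, with a median of -0.73, and their sum ran from 378.0 to 446.5 in APT121 against 501.9 to 1177.6. These sums were lower in the same group in which some epithelial keratins were higher. Whether they vary together from array to array, and their part in that rise, was not tested. Krt5, Krt15 and Krt14 fell in that group, and Krt18 stayed within the wild type range.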

How the data were processed

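Total RNA of 12 pools was hybridised to Affymetrix Mouse Gene 1.0 ST arrays, per the labels. The authors deposited 1 linear RMA intensity per transcript cluster and array, per the submitters' processing notes; the software version and genome build, not given in the sources used here, stay unknown. RMA equalises the arrays and so hides any change in the amount of RNA per cell. Log2 was taken here with no pseudocount and no filter. Of 28815 clusters, 21780 with 1 symbol were kept, with the brightest cluster for each of 998 genes with several, leaving 19935 genes. The 52 keratins had 1 cluster each, and their gene IDs matched RefSeq.

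APT121 was set against wild type in limma 3.58.1 under R 4.3.3 (lmFit, eBayes, two-sided, Benjamini-Hochberg over 19935 genes, threshold 0.05). The design text names SAM at a 5% false discovery rate, which was not run. Array medians ran from 32.1 to 33.7, and precision is limited by how many arrays there are. The fit was tested on simulated data with far fewer changed genes than were called here. It recovered 67.2% of changes of 0.5 (log2), 98.5% of those of 1 and 100% of those of 2. Of its 185 calls, 4.32% were false. Keratins named were those changed by at least 2-fold and the main keratins of each class; of other lists, up to 3 called genes with the largest change, and further genes were chosen after their values were seen. The members and lists were chosen with earlier results of these data known. Promoter motifs were searched on both strands; ATAAAAG was added after the sequences were seen. Alternatives were scaling, filters, variance model, cluster choice, replicate block, pseudocount and arrays left out.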

Additional observations from a re-analysis of the deposited data

Results flagged for a closer look

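Some single arrays stood far from the rest of their group by Dixon's test, in 7 of the 94 groups checked, where chance alone gives about 1 in 20. Krt17 was low on APT121 array 1, at 4.29, and Krt23 was high on APT121 array 2, at 7.75. Krt78 was low on wild type array 1, at 3.92, which lies farther from the APT121 values than the other wild type arrays. Krtap3-3 was high on wild type array 3, at 4.52. Wild type array 6 stood apart in the seminal vesicle genes, with Pate4 at 11.14, Svs2 at 12.93 and Svs5 at 12.15, and not in the keratins.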

How the results depend on the processing

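The 7 keratins that rose, and Krt5, Krt15, Krt14, Krt34, Krt33b, Krt82 and Krt28 among those that fell, kept their call in every setting in which they were tested. Leaving out each array in turn gave 8979 to 10493 genes called, 7 keratins higher throughout and 8 to 14 lower, with 8 without APT121 array 4. Without the lowest 50% of genes, 12 keratins were tested, of which 4 were higher and 4 lower; 1 stratified keratin was then higher and 1 hair shaft keratin lower, and 53.1% of all calls were higher against 43.1%. The stratified keratins called lower, 1 in the report, came to 0 after quantile normalisation, without the lowest 25% or 50% of genes, with the replicate block, against wild type arrays 1 to 4 or 5 to 8 alone, and with log2(value + 16), and to 0 to 1 without single arrays. Replicate numbers did not pair the samples (correlations of 0.04, 0.04, 0.12 and -0.01), and with the replicate block 4027 genes were higher and 4787 lower, with 7 keratins higher, 9 lower and 1 hair follicle keratin lower, and Krt27 lost its call (limma adjusted p = 0.0629). Differences near 0 changed sign without passing: Krt13 at -0.0023 with array weights, Krt18 at 0.0027 against wild type arrays 5 to 8 alone, and Krt23 at -0.018 after median centring, -0.13 after quantile normalisation and from -0.076 to 0.076 without single arrays. The cause was not tested. Of up to 3 genes per other list that were run under these settings, Padi3 alone lost its call in some; the further list genes were not run. Signal near background limits the hair keratins.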
